A study of Mus musculus with 12 samples.

Results

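Transcripts of 9 surface proteins that are used to sort or describe hematopoietic stem cells (HSCs), namely Kit, Ly6a, Slamf1, Cd48, Cd34, Flt3, Procr, Tek and Esam, were followed in RNA-seq libraries of young, aged and aged CASIN-treated long-term HSCs (LT-HSCs). They were taken by gene symbol from a table of 22548 genes, and all 9 were found. The table holds 12 samples of C57BL/6 mice, namely 4 of young HSCs (replicates 2 to 5, mice of 2 to 4 months), 5 of aged HSCs (replicates 0 and 2 to 5, 20 to 26 months) and 3 of aged CASIN-treated HSCs (replicates 1 to 3, 20 to 26 months). CASIN is a small molecule that lowers the activity of the RhoGTPase Cdc42, and was given at 5 µM. Per the labels all samples, controls included, were kept for 16 h at 3% O2 in medium with serum, so that no group stands for freshly isolated cells. Per the labels each library was made from at least 200 cells, while the methods give another, higher number of pooled cells. The study compares aged with young HSCs, and asks whether aged HSCs become more like young ones when Cdc42 activity is lowered.

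HSCs are rare cells of the bone marrow from which all blood lineages arise, and they are isolated by the proteins on their surface. LT-HSCs were gated here as lineage-negative, c-Kit-positive, Sca-1-positive, CD34-negative or low and Flk2-negative cells. In gene names this gate asks for Kit and Ly6a (Sca-1) and against Cd34 and Flt3 (Flk2), whereas Slamf1, Cd48, Procr, Tek and Esam were not part of it. The gate reads protein on the cell, which can persist or be absent independently of its transcript, and it was the same in all groups.

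The values were read as log2 expression levels brought to a common distribution (quantile normalization), a step that the methods do not describe. In each library the genes without signal share the lowest value, and a gene above that value is called detected. Young libraries had lowest values of 0.43 to 0.67 and 6078 to 9673 detected genes. For aged libraries these were 0.018 to 0.23 and 11463 to 17621 genes, and for CASIN-treated ones 0 to 0.63 and 6845 to 20013. CASIN replicate 2 stood apart with 20013 detected genes, against 6845 and 7288 in CASIN replicates 1 and 3. Of 10 genes that every cell uses, a list chosen after the values were seen, 57.5% of values were detected in young, 70% in aged and 73.3% in CASIN-treated samples. Actb, Gapdh and Eef1a1 were detected in all 12 samples, as were 9.50% of all genes. Rplp0, a ribosomal protein gene, was detected in 6 and Hprt in 2. Actb, which encodes beta-actin, had 6.16, 6.80, 2.92 and 7.73 in young replicates 2 to 5, 1.53 to 3.29 in aged and 4.15 to 5.52 in CASIN-treated samples, with differences from aged HSCs of 3.63 and 2.79 (limma adjusted p = 0.516 and 0.948, both under 0.05 unadjusted). A member at the lowest value is therefore only described as listed there, and no group mean with an SD is given for it. The depth of the libraries is unknown, and fewer expressing cells cannot be told apart from less RNA per cell.

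Of the 108 values of the 9 genes in 12 samples, 43 were above the lowest value. In young HSCs 8 of 36 values were detected (22.2%), in aged HSCs 26 of 45 (57.8%) and in CASIN-treated HSCs 9 of 27 (33.3%). For all genes of the table these shares were 34.3%, 62.6% and 50.5%. A common detection limit of 3.62, the highest of the libraries' smallest detected values, was then given to every library (chosen after seeing the data). This limit is the smallest detected value of young replicate 2, so every detected member of that library passes it. At or above it were 13.9% of the members' values in young, 11.1% in aged and 11.1% in CASIN-treated HSCs. These shares rest on few values, 5 of 36, 5 of 45 and 3 of 27. The share of all genes was not computed for this limit, so no order of the groups is read from them. In single libraries, 3, 1, 3 and 1 of the 9 genes were detected in young replicates 2, 3, 4 and 5. Aged replicates 0, 2, 3, 4 and 5 held 7, 6, 4, 5 and 4 of them. CASIN replicates 1, 2 and 3 held 0, 8 and 1, so that 8 of the 9 detected values of CASIN-treated HSCs come from replicate 2, and without it their share was 5.56%. By group, the detected share of the 9 genes had the same order as that of all genes. Within groups this did not always hold. Young replicate 2 had 27.0% of all genes and 3 members detected, and young replicate 3 had 38.4% and 1. The part of the libraries' own detection in the share of the 9 genes was not tested.

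**Figure D1:**
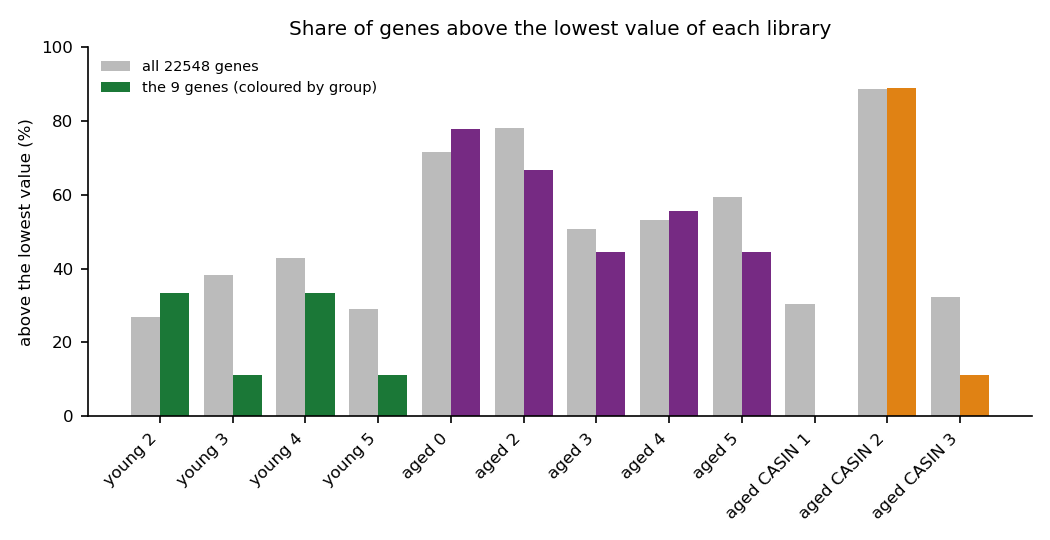
Percentage of genes above the lowest value of their library, for all 22548 genes (grey bars) and for the 9 surface genes (bars coloured by group, green young, purple aged, orange aged CASIN-treated), in each of the 12 libraries. CASIN replicate 1 has no coloured bar because 0 of the 9 genes were detected there, whereas 8 of 9 were in CASIN replicate 2.

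The libraries also differed in the smallest value that a detected gene could take. Because many genes are tied at the bottom of a library, no gene fills the range between the lowest value and the first detected one. That first detected value was 3.62, 1.97, 1.58 and 3.24 in young replicates 2 to 5. In aged HSCs it lay between 0.18 and 1.21, and in CASIN replicates 1, 2 and 3 it was 2.94, 0.018 and 2.58. Of the 26 detected values of aged HSCs, 11 were smaller than 1.58 and 21 smaller than 3.62, so most of them lay in a range that at least 1 young library could not show. The value of Kit in aged replicate 2 (0.22) even lay under the lowest value of each young library, in none of which Kit was detected.

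**Figure D2:**
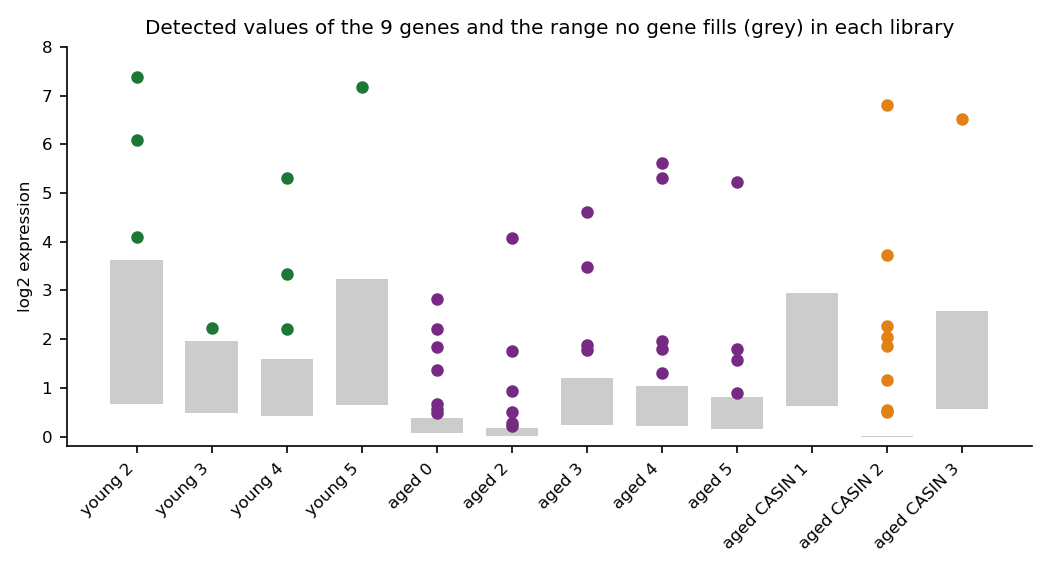
Log2 expression of the detected surface genes (circles, coloured by group) in each of the 12 libraries. Grey bars run from the lowest value of a library to its first detected value and hold no gene. The bars of the 4 young libraries reach 1.58 to 3.62, and 11 of the 26 circles of the aged libraries lie below 1.58.

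The first pair of genes encodes the proteins that the gate requires. Kit (chromosome 5, 75574916 to 75656722 on the plus strand, mm10 coordinates of GENCODE M21 here and below) is the receptor tyrosine kinase for stem cell factor, which keeps HSCs alive and in the niche. Kit was listed at the lowest value in all 4 young samples (0.67, 0.48, 0.43 and 0.65 in replicates 2 to 5). In aged HSCs it was detected in replicates 0, 2 and 4 with 2.21, 0.22 and 1.97, and was at the lowest value in replicates 3 and 5 (0.23 and 0.16). CASIN replicate 2 had the highest value of Kit by far with 6.80, which is percentile 91.1 of the genes of that library, while CASIN replicates 1 and 3 were at the lowest value (0.63 and 0.58). The groups overlapped in every comparison. At the lowest value in all 4 young samples were 34.6% of all genes.

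Ly6a (chromosome 15, 74994877 to 74998031, minus strand) encodes Sca-1, a small membrane-anchored protein of the Ly6 family. Reads from close members of this family may have been split between genes, and how the authors' counting treated them is not stated. Ly6a was at the lowest value in all 4 young samples as well. It was detected in aged replicates 0, 2 and 5 with 0.67, 0.51 and 1.79, and in CASIN replicate 2 with 1.16. All 4 detected values are below the first detected value of young replicates 2, 3 and 5. Each of Kit and Ly6a was detected in 4 samples, and 37.2% of all genes were detected in 4 or fewer. Detection in at least 3 aged and 0 young samples, which each showed, was found for 12.8% of all genes. Both were detected in 3 samples, namely aged replicates 0 and 2 and CASIN replicate 2, and neither was in 7 of 12. Those 3 libraries had the most detected genes of all (16167, 17621 and 20013). In 9 of 12 libraries, all of which are labelled as LT-HSCs, at least 1 transcript of the required pair was thus at the lowest value.

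Cd34 and Flt3 encode proteins that the gate excludes. Cd34 (chromosome 1, 194938819 to 194961279, plus strand) encodes a sialomucin that marks short-term HSCs and multipotent progenitors in mice. It was detected in 1 of 4 young samples, with 2.22 in replicate 3. In aged HSCs it was detected in replicates 0, 2, 4 and 5 with 0.48, 0.93, 1.80 and 5.23, and in CASIN-treated HSCs in replicate 2 with 2.05. Detection in at least 4 aged and at most 1 young samples was found for 15.9% of all genes. The value of aged replicate 5 stood at percentile 81.3 of its library and was the only value of Cd34 above 3.62, the highest of the first detected values.

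Flt3 (chromosome 5, 147330741 to 147400489, minus strand) encodes the receptor for Flt3 ligand, which appears on multipotent progenitors as they turn to the lymphoid side. It was detected in all 5 aged samples, with 2.83, 4.09, 1.88, 5.30 and 1.57 in replicates 0 and 2 to 5. In young HSCs it was detected in replicate 2 with 6.08, the highest value of Flt3 in any sample, and it was at the lowest value in the other 3. In CASIN-treated HSCs it was detected in replicate 2 with 2.26. Detection in 5 of 5 aged and at most 1 of 4 young samples was found for 1213 genes, 5.38% of all genes. The 3 young libraries without Flt3, replicates 3, 4 and 5, had first detected values of 1.97, 1.58 and 3.24. Of the 5 aged values 2.83, 4.09 and 5.30 lie above the first of these, these 3 and 1.88 above the second, and 4.09 and 5.30 above the last. Flt3 and Cd34 were both detected in 5 samples and at least 1 of them in 8. In 0 of 12 samples were Kit and Ly6a detected while Flt3 and Cd34 were at the lowest value. Kit and Ly6a were both detected only in the 3 libraries with the most detected genes. Both Cd34 and Flt3 overlap an annotated antisense gene (Gm16897 and Gm26597), and the sources used here do not say if strand was used in counting.

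Slamf1 and Cd48 lie close to each other on chromosome 1 and belong to the SLAM family, whose members are widely used to purify HSCs. Slamf1 (171767127 to 171801184, plus strand) encodes CD150, which is found on LT-HSCs, and Cd48 (171682009 to 171705258, plus strand) encodes a protein that is absent from LT-HSCs and appears on progenitors. Slamf1 was detected in young replicate 4 with 3.35 and in aged replicates 0 and 3 with 1.84 and 4.62. In CASIN replicate 2 its detected value of 0.51 lay below the lowest value of CASIN replicates 1 and 3 (0.63 and 0.58). Cd48 was at the lowest value in all 12 samples, as were 1.83% of all genes. The 4 samples with Slamf1 therefore had a CD150-positive and CD48-negative transcript pattern, but so far as Cd48 goes this holds for every sample.

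Procr, Tek and Esam are membrane proteins that HSCs share with the vessel wall. Procr (chromosome 2, 155751117 to 155755471, plus strand) encodes the endothelial protein C receptor, EPCR. Its highest values were in young replicates 2 and 4, with 7.38 and 5.32 at percentiles 94.5 and 81.8 of their libraries, whereas young replicates 3 and 5 were at the lowest value. In aged HSCs it was detected in replicates 0, 3 and 4 with 1.37, 3.49 and 1.30, all below both young values. In CASIN-treated HSCs the 1 detected value was 0.55, in replicate 2. Each of the 4 samples with Slamf1 also had Procr.

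Tek (chromosome 4, 94739289 to 94874976, plus strand) encodes Tie2, the receptor for angiopoietins, which is tied to HSC quiescence in the niche. It was the member detected in most samples, 8 of 12, and the only 1 detected in CASIN replicate 3. Its values were 4.11 and 7.17 in young replicates 2 and 5. In aged HSCs they were 0.58, 0.29, 5.61 and 0.89 in replicates 0, 2, 4 and 5. In CASIN replicates 2 and 3 they were 3.73 and 6.52. Samples with a high value (4.11 or more) and samples at the lowest value were thus found in each group. Esam (chromosome 9, 37528078 to 37538319, plus strand) encodes an endothelial cell adhesion molecule. It had a narrow range, with 2.21 in young replicate 4, 1.77 and 1.78 in aged replicates 2 and 3 and 1.87 in CASIN replicate 2, and was at the lowest value in the other 8 samples.

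**Figure D3:**
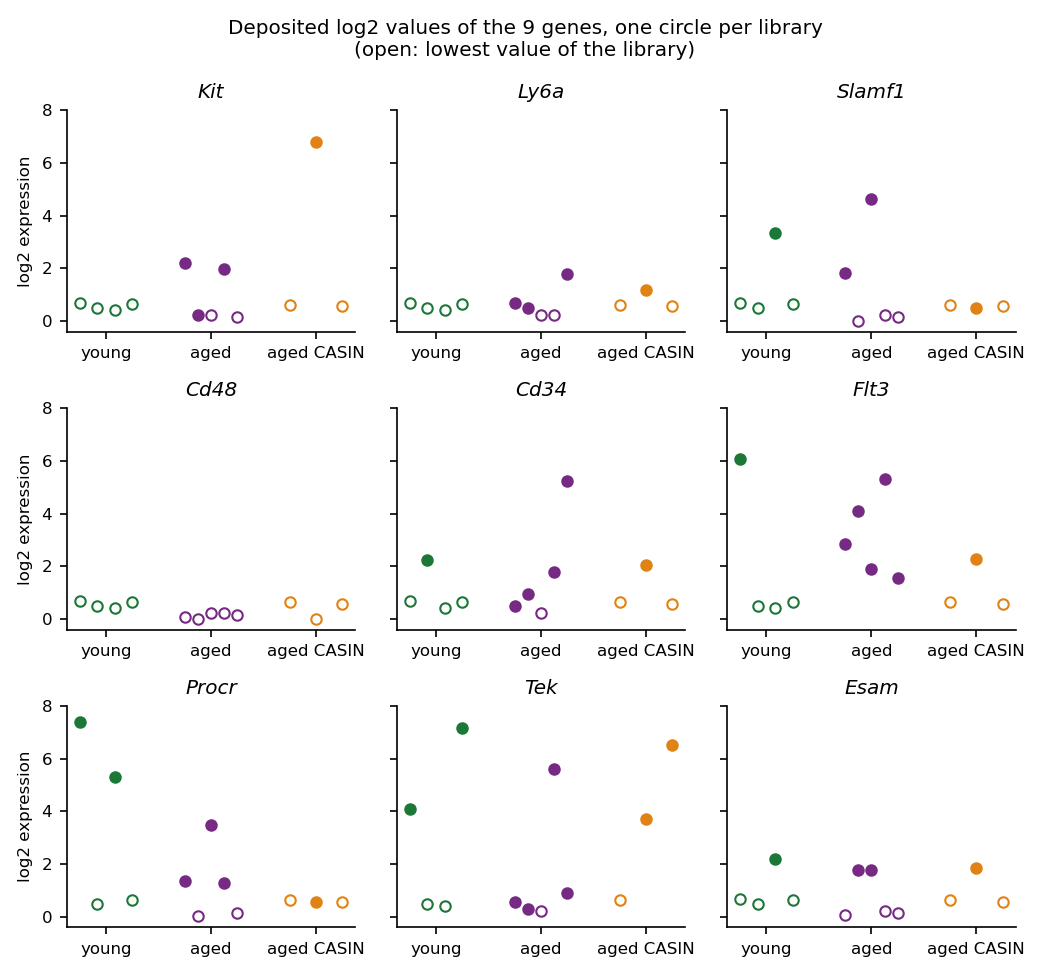
Log2 expression of each of the 9 genes in the 4 young, 5 aged and 3 aged CASIN-treated libraries, 1 circle per library in the order of the replicate numbers. Filled circles are detected values and open circles the lowest value of the library. Cd48 shows open circles only, and the groups overlap in each of the other 8 genes.

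Next, the groups were compared with limma in a fit of all genes and all 12 samples. None of the 9 genes had a Benjamini-Hochberg adjusted p under 0.05 over 22548 genes, and none had an unadjusted p under 0.05, in any of the 3 comparisons. Over all genes 4 (0.0177%) passed the adjusted threshold in young against aged HSCs, 5 (0.0222%) in CASIN-treated against aged HSCs and 0 in CASIN-treated against young HSCs, while 5.33%, 4.4% and 4.29% had an unadjusted p under 0.05. These tests do not show that the groups are alike, since the 95% confidence intervals of the differences span over 4 log2 units for Kit, Slamf1, Cd34, Flt3, Procr and Tek. The differences below are differences of mean log2 value, in which a gene at the lowest value enters with that value.

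The largest difference between young and aged HSCs was that of Procr, with 2.19 (young minus aged, 95% confidence interval -0.85 to 5.23, limma adjusted p = 0.764). An exact two-sided permutation test of the 4 against 5 samples gave p = 0.254 for Procr. Tek differed by 1.53 (-2.31 to 5.37) and Flt3 by -1.22 (-3.96 to 1.52, exact permutation p = 0.381). The difference of Flt3 was -2.61 without young replicate 2 (under 0.05 unadjusted, limma adjusted p = 0.722) and 0.19 under the common detection limit. The difference was -0.74 (-2.86 to 1.38) for Cd34, -0.40 (-2.95 to 2.15) for Kit and -0.13 (-1.0 to 0.75) for Ly6a. For Slamf1 it was -0.083 (-2.25 to 2.08), and for Esam 0.20 (-1.08 to 1.49). With 4 genes higher and 5 lower in young HSCs, their median difference was -0.083, against -0.017 over all genes.

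Cd48 was the single member whose young and aged samples did not overlap (exact permutation p = 0.0159, the smallest that 4 against 5 samples can give here), with a difference of 0.42 (-0.24 to 1.08). Not overlapping were 9.15% of all genes. The separation of Cd48 is that of the lowest values themselves, 0.43 to 0.67 against 0.018 to 0.23, since it was detected in none of these samples. Of the 2063 genes whose groups did not overlap, 1061 were likewise at the lowest value in all 9 samples.

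Between CASIN-treated and aged HSCs, Tek differed by 2.11 (-2.07 to 6.29) and Kit by 1.71 (-1.07 to 4.49). The difference of Kit rests on CASIN replicate 2, and without this sample it was -0.36. Flt3 differed by -1.98 (-4.96 to 1.0, limma adjusted p = 0.948), and the exact permutation test of 3 against 5 samples gave p = 0.107. Slamf1, Procr and Cd34 differed by -0.80 (-3.15 to 1.55), -0.69 (-3.99 to 2.62) and -0.65 (-2.96 to 1.66), and Ly6a, Esam and Cd48 by 0.10, 0.22 and 0.26. No member was without overlap between these groups, as against 4.82% of all genes.

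The comparisons above share the aged samples. Between CASIN-treated and young HSCs, Procr differed by -2.87 (-6.33 to 0.58, limma adjusted p = 0.9995) and Kit by 2.11 (-0.80 to 5.02). The other differences were -0.76 for Flt3, -0.72 for Slamf1, 0.58 for Tek, 0.23 for Ly6a, -0.16 for Cd48, 0.090 for Cd34 and 0.019 for Esam. No member was without overlap here either, against 2.96% of all genes.

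**Figure D4:**
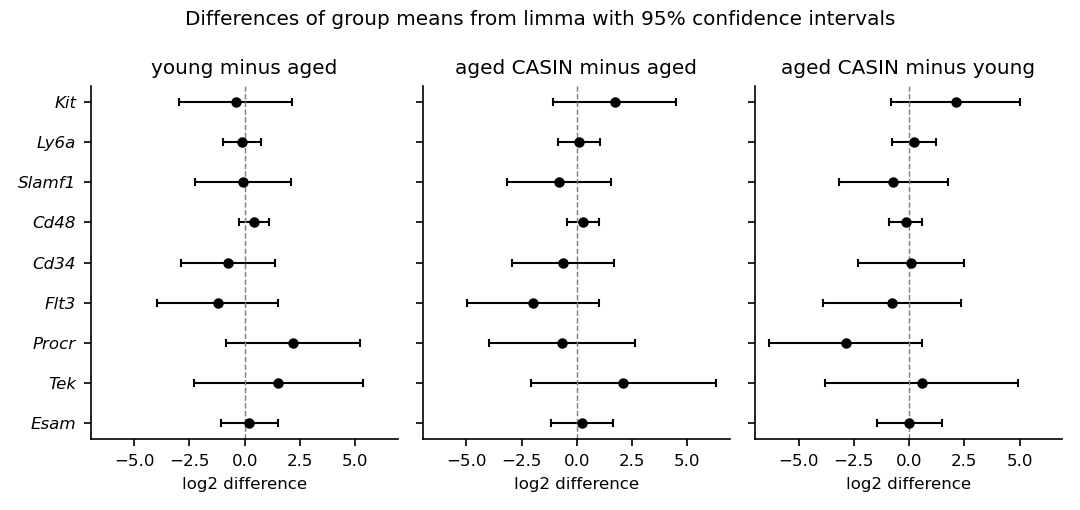
Differences of mean log2 expression for the 9 genes in the 3 comparisons (points) with 95% confidence intervals from limma (bars). Each interval includes 0. They are narrowest for Cd48, which was detected in no library, and for Ly6a, whose highest value is 1.79.

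How the levels of all genes are set against each other matters for these signs. After centring of each sample on the genes found in every library, all differences rose by 0.45 in young against aged and by 0.35 in CASIN-treated against aged HSCs, and 7 of the 9 members were higher in young HSCs. With a common lowest value of 0 the differences of all genes moved by -0.35 and -0.26 (medians), and 2 of the 9 were higher, Procr and Tek.

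Ligands and partners of these receptors were examined as well. Of 13 such genes in the table, 0 reached an unadjusted limma p of 0.05 in either comparison with aged HSCs, against 5.33% and 4.4% of all genes. Their median differences were -0.17 and -0.40, against -0.017 and -0.038 for all genes. The genes named from here to the end of the paragraph were chosen after their values were seen. Angpt2, which binds Tek, was detected in all 12 samples (as were 9.50% of all genes) with 5.81 to 8.82. Kitl, the ligand of Kit, was detected in 1 of 4 young samples (4.04), in 5 of 5 aged samples (0.75 to 7.24) and in CASIN replicates 1 and 2 (5.97 and 3.31). Detection in 5 of 5 aged and at most 1 of 4 young samples was found for 5.38% of all genes. Angpt1, the activating ligand of Tek, was detected in 2 young, 3 aged and 2 CASIN-treated samples, and the ligand of Flt3, Flt3l, in 0, 2 and 1. Tie1, the partner of Tek, was not detected in young HSCs, but in 4 aged samples and in CASIN replicate 2. At the lowest value in all 4 young samples were 34.6% of all genes. Over all genes 34.3% of values were detected in young and 62.6% in aged samples.

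Among 19 signal transducers below Kit, Flt3 and Tek, 1 reached an unadjusted p of 0.05 when young and aged HSCs were compared, and 0 when CASIN-treated and aged HSCs were. Of all genes, 5.33% and 4.4% did so in these comparisons. The 1 signal transducer, Sh2b3, encodes the adaptor Lnk, which restrains signalling by Kit in HSCs. It had values of 5.48 and 6.54 in young replicates 4 and 5 and was at the lowest value in the other 2. In aged HSCs it was detected in replicates 0 and 2 with 1.52 and 0.32, and in CASIN replicate 2 with 0.066. Its difference was 2.80 between young and aged HSCs (95% confidence interval 0.19 to 5.42, limma adjusted p = 0.764), which did not pass the adjusted threshold. Cbl, Pik3r1 and Socs2, chosen after their values were seen, were detected in all 12 samples, as were 9.50% of all genes. The median difference of the 19 genes was -0.35 in young against aged HSCs and -0.25 in CASIN-treated against aged HSCs.

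Of 24 other receptors and surface proteins of stem and progenitor cells, 1 passed the same unadjusted threshold in the first comparison and 0 in the second. The shares of all genes that passed it were 5.33% and 4.4%. Il6st, the gp130 subunit shared by receptors of the interleukin-6 family, was at the lowest value in all 4 young samples, as were 34.6% of all genes. It was detected in 4 of 5 aged samples, with 2.83, 7.15, 5.61 and 1.84 in replicates 0, 2, 4 and 5, and in CASIN replicate 2 with 2.03. Its difference was -2.97 (-5.64 to -0.30, limma adjusted p = 0.764). Of genes chosen after their values were seen, Cd27, Cd93 and Il7r were detected in all 12 samples, as were 9.50% of all genes. Their values were 1.96 to 6.86, 4.37 to 9.0 and 3.88 to 7.21. The median difference of the list was -0.17 and -0.11.

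The label of the cells was set against other genes of LT-HSCs. Of 11 such genes that are not among the 9, 4 to 7 were detected in young, 8 to 11 in aged and 6 to 11 in CASIN-treated samples. In either comparison with aged HSCs 0 of them passed the unadjusted threshold, against 5.33% and 4.4% of all genes. The median differences of the 11 genes were -0.63 (young minus aged) and 0.70 (CASIN-treated minus aged). The single genes that follow were chosen after their values were seen. Meis1, a transcription factor that HSCs depend on, was detected in all 12 samples (as were 9.50% of all genes), with 6.54 to 8.53. Hlf, a transcription factor specific to HSCs, was detected in all young and CASIN-treated samples and in 4 of 5 aged samples (0.46 to 8.71 where detected). Mecom and Fgd5 were each detected in 1 young, 5 aged and 3 CASIN-treated samples. Detection in 5 of 5 aged and at most 1 of 4 young samples was found for 5.38% of all genes. Thus Hlf and Meis1 were present in libraries that listed Kit and Ly6a at the lowest value.

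Genes of progenitors and of mature cells were detected alongside. Of 7 genes of multipotent and lymphoid-primed progenitors 0 to 4 were detected in young, 3 to 5 in aged and 2 to 6 in CASIN-treated samples, with summed log2 levels of 4.70 to 22.5, 12.9 to 23.4 and 13.0 to 15.5. For 6 B cell genes the counts were 0 to 3, 2 to 6 and 2 to 6, and the sums 3.93 to 19.5, 5.33 to 24.6 and 10.6 to 14.7. For 6 T cell genes the counts were 2 to 3, 3 to 5 and 2 to 5 (sums 15.8 to 20.2, 18.4 to 22.8 and 14.1 to 26.7). For 5 granulocyte and monocyte genes they were 2, 2 to 3 and 1 to 4 (12.9 to 14.6, 9.54 to 14.9 and 9.13 to 11.7). Erythroid genes, 4 in the table, were detected at 0 to 1, 0 to 3 and 0 to 1 (1.93 to 7.57, 0.66 to 7.55 and 0.75 to 2.51). The 6 megakaryocyte genes were detected at 1 to 3, 2 to 4 and 1 to 5 (10.9 to 21.7, 11.5 to 17.3 and 9.61 to 22.5), and the 6 endothelial genes at 0 to 4, 2 to 5 and 1 to 6 (3.93 to 11.9, 6.09 to 15.9 and 7.79 to 15.1). The sums include the lowest value of the library for each gene not detected. The upper end of the erythroid sums in CASIN-treated HSCs (2.51) and the lower end of the B cell and endothelial sums in young HSCs (3.93) thus belong to libraries without any detected gene of the list. The same holds for the lower ends of the erythroid sums in young and aged HSCs (1.93 and 0.66) and of the progenitor sums in young HSCs (4.70). The part of other cells in the values of the 9 genes was not tested.

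Single genes of these lists bear on the gate, whose lineage antibodies bind the products of Itgam, Cd8a and Cd5 among others. Itgam (7.48 to 9.17), Cd8a (3.03 to 7.86) and Cd3d (8.26 to 9.98) were detected in all 12 samples, as were 9.50% of all genes. Cd5 was detected in none, as were 1.83% of all genes. Ptprc, of the list of other surface proteins, encodes B220, another target, and was detected in 9 samples. Cd3d is not a target of these antibodies. Of the other genes of the T cell and myeloid lists, Cd3g, Lck and Elane were detected in 0 of 4 young samples, Cd3e, S100a8 and S100a9 in 1 and Lyz2 in 2. Of the 5 aged samples, Cd3g, Lck and Cd3e were detected in 4, Elane and S100a8 in 3, Lyz2 in 1 and S100a9 in 0. Of the 3 CASIN-treated samples, Lck was detected in 2, Lyz2 in 0 and the others in 1. These genes were named after their values were seen, except for Lyz2. Of the 40 genes of these 7 lists, 2 (5%) passed 0.05 unadjusted between young and aged HSCs and 3 (7.5%) between CASIN-treated and aged HSCs, against 5.33% and 4.4% of all genes. Lyz2, a myeloid lysozyme, had 2.85 and 4.37 in young replicates 3 and 5, 1.01 in aged replicate 0 and no detected value elsewhere (young minus aged 1.75, limma adjusted p = 0.764). Itgb3, an integrin of platelets and HSCs, was detected in all samples, with 5.91 to 7.63 in young and 7.28 to 8.83 in aged HSCs, a difference of -1.25 (limma adjusted p = 0.764). Its difference between CASIN-treated (5.67 to 7.79) and aged HSCs was -1.43 (limma adjusted p = 0.948). Ctsg and Pf4, a protease of progenitors and granulocytes and a platelet chemokine, were detected in CASIN replicate 2 only, with 2.46 and 2.25.

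Finally, the genes whose values over the 12 samples were most like those of a member were listed for the 4 members detected in at least 6 samples, among 11585 genes detected in at least 6. With 12 samples and this many genes high coefficients arise readily, and they are given as a description. Closest to Cd34 were Olfr1346 (Pearson r = 0.974) and Gm6588 (0.907), both highest in aged replicate 5 with 6.81 and 6.02, Gm6588 having 5.23 in CASIN replicate 2 as well. Closest to Flt3 were 2700081O15Rik (0.942) and Tcea1 (0.939), which like Flt3 were highest in young replicate 2 (7.61 and 9.12). Closest to Procr were Adora2a (0.937) and Hbegf (0.937), both highest in young replicates 2 and 4. Closest to Tek were Tbc1d9b (0.885) and Sema3c (0.878), both highest in young replicate 5 and aged replicate 4.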

How the data were processed

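RNA-seq libraries, prepared from pooled sorted HSCs with a single-cell RNA-seq kit, were available for 4 young, 5 aged and 3 aged CASIN-treated samples. Per the methods, paired-end reads were trimmed with trim galore, mapped by TopHat (mm10, RefSeq), and then passed to Cufflinks. The authors deposited log2 values for 22548 genes. The base and the quantile normalization were read from the values, since the methods do not describe how they followed from Cufflinks. The depth is unknown.

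The values were tested without further scaling or filter by limma 3.58.1 (R 4.3.3), with moderated statistics from a model of all 12 samples in 3 groups and Benjamini-Hochberg adjustment over all genes at 0.05. Exact two-sided permutation tests of single genes used scipy 1.17.1 in Python 3.11.15, and figures matplotlib 3.10.9. The scripts were tested on simulated data. Positions are from GENCODE M21. Samples are described as biological repeats in the methods, and no batch is given.

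The 9 genes, the lists and the rule for named genes were chosen with earlier results of these data known. By this rule the 9 genes were named, with the 2 genes most like each member detected in at least 6 samples, and those list genes whose unadjusted p was below 0.05 in a comparison with aged HSCs. Lists cover ligands and partners, signal transducers, other surface proteins, LT-HSCs, progenitors, B cells, T cells, myeloid, erythroid, megakaryocyte and endothelial cells. Of the listed symbols, Ighm, Ly6g, Hba-a1, Hba-a2, Cd244a and Adgrg1 were not matched, the last 2 being present under their older symbols Cd244 and Gpr56. Alternatives were a common lowest value, centring, 2 filters, a pseudocount of 0.1, array weights, limma-trend, robust eBayes, fits of 2 groups, the number of detected genes as a covariate, a block for the replicate number, and omission of each sample in turn. A common detection limit, which raises every value under 3.62 to 3.62, was chosen after seeing the data. Some genes of the lists are not reported by name here.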

Additional observations from a re-analysis of the deposited data

Results flagged for a closer look

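Dixon's test at the 95% level was applied in young and in aged HSCs. It took each member detected in the group, the number of detected members and the number of detected genes. Single samples stood far from the others of their group for 6 of these 18 sets of values. The rate of about 1 in 20 for this test assumes normally distributed values. Many values here are the lowest value of a library, so the 6 sets cannot be set against that rate. The values were 3.35 for Slamf1 and 2.21 for Esam in young replicate 4, 2.22 for Cd34 in young replicate 3, 6.08 for Flt3 in young replicate 2, 1.79 for Ly6a in aged replicate 5 and 5.61 for Tek in aged replicate 4. Each of the 4 young values was the only detected one of its group, so the gap is that between a detected gene and the lowest values of the other libraries. Ly6a was also detected in aged replicates 0 and 2, and Tek in aged replicates 0, 2 and 5.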

How the results depend on the processing

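No member had an adjusted p under 0.05 in any of 24 settings, 12 with all samples and 12 with 1 sample left out, the lowest being 0.350 (limma-trend, Cd48, young against aged). Depth is unknown, and a transcript below the first detected value of a library could not be seen there. The share of aged member values detected (57.8%) was 40% when only values of at least 1 counted and 11.1% under the common detection limit, where the young share was 13.9% and the CASIN-treated share 11.1%. The filter on a mean of at least 3 removed all 9 members, and that on detection in at least 3 samples removed Cd48. The causes of the changes below were not tested.

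The number of genes at an adjusted p under 0.05 was 4, 5 and 0 in young against aged, CASIN-treated against aged and CASIN-treated against young HSCs. Both filters, the pseudocount and limma-trend each gave 2 genes in the first and 2 in the second comparison. In the last comparison a common lowest value and array weights gave 2 each, and fits of the groups compared only gave 5. The detection covariate gave 2, 9 and 7, and the common detection limit 9 and 9 in both CASIN comparisons. At an unadjusted p under 0.05 (1202, 993 and 968 genes), the filter on the mean gave 446, 301 and 379, limma-trend 2091 in the first, and the common detection limit 669 and 625 in the comparisons with aged HSCs. With 1 sample left out, adjusted counts ranged from 2 to 16, from 2 to 51 and from 0 to 45, the largest of the CASIN comparisons without CASIN replicate 2, and unadjusted counts of CASIN-treated against aged HSCs from 920 to 1619.

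Same-numbered samples did not deviate together over all genes (correlations of their deviations from -0.033 to 0.058). Many genes are tied at the lowest value of a library, so these correlations cannot settle whether the numbers pair the samples. With the replicate number as a block, 2 and 1 genes passed the adjusted threshold in the comparisons with aged HSCs, and Slamf1 turned to 0.033 in young against aged HSCs.

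Other member differences that changed sign follow. Under a common lowest value these were Esam (young against aged -0.16, CASIN-treated against aged -0.087) and Ly6a (CASIN-treated against aged -0.21). Under centring they were Kit 0.052, Ly6a 0.33 and Slamf1 0.37 (young against aged), and Cd34 -0.012 and Esam -0.084 (CASIN-treated against young). The pseudocount gave Slamf1 0.53 (young against aged), and array weights Cd34 -0.058 and Esam -0.025 (CASIN-treated against young). The detection covariate gave Kit 1.88 and Ly6a 0.086 (young against aged), and Cd48 0.0086, Cd34 -0.14 and Esam -0.34 (CASIN-treated against young). The common detection limit gave Flt3 0.19 (young against aged) and Tek -0.0062 (CASIN-treated against young).

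With 1 sample left out, young-against-aged differences ranged from -0.24 to 0.15 for Ly6a, -0.77 to 0.73 for Slamf1, -1.15 to 0.13 for Cd34 and -0.20 to 0.45 for Esam. Those of CASIN-treated against aged HSCs ranged from -0.36 to 2.76 for Kit, -0.084 to 0.38 for Ly6a, -1.14 to 0.011 for Slamf1, -1.13 to 0.23 for Cd34 and -0.20 to 0.47 for Esam. Those of CASIN-treated against young HSCs ranged from -0.27 to 0.042 for Cd48, -0.39 to 0.50 for Cd34, -1.31 to 0.63 for Flt3, -0.87 to 2.08 for Tek and -0.40 to 0.42 for Esam. An unadjusted but not adjusted limma p under 0.05 was reached with all samples by Kit in CASIN-treated against aged HSCs under the detection covariate (2.69) and by Cd48 in young against aged HSCs under limma-trend (0.42). With 1 sample left out it was reached by Flt3 without young replicate 2 (young against aged -2.61, CASIN-treated against aged -1.98), by Procr without young replicates 3 and 5 (young against aged 3.18 and 3.12, CASIN-treated against young -3.87 and -3.81) and by Kit without CASIN replicate 3 (CASIN-treated against young 3.16).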
